A study of Sus scrofa with 6 samples.

Results

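Genes of the mitotic cell cycle were examined in ventricular myocardium of Tibetan minipigs, 3 with sham surgery (thoracotomy without constriction) and 3 with descending aortic constriction (DAC), a chronic pressure overload of the left ventricle. The animals were male, and myocardium was taken 12 weeks after the operation. The samples are called sham 1 to 3 and DAC 4 to 6, after their labels. The 36 genes were fixed by name, and 27 of them had a row under their symbol among the 13288 genes of the deposited table. The values are FPKM, mapped fragments scaled to transcript length and to the size of the library, so levels can be set side by side between genes. The table lists a gene only where its highest sample reaches 0.5 FPKM.

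Progress through the cell cycle is driven by cyclin-dependent kinases (CDKs), which are active only when bound to a cyclin. D cyclins with CDK4 or CDK6 act in G1 and phosphorylate the retinoblastoma protein RB1, which releases E2F factors. E and A cyclins with CDK2 then carry the cell through DNA synthesis, and A and B cyclins with CDK1 through mitosis. Most cardiomyocytes of the adult heart have left the cycle, while fibroblasts, endothelial cells and leukocytes of the same tissue can divide. RNA from whole myocardium mixes all of these, so fewer cells of a type and less RNA per cell cannot be told apart.

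The highest levels were those of G1 genes, and most of the mitotic genes lay near the lower limit of the table. There were exceptions on both sides, since the mean was 3.20 FPKM in CCND3, 0.797 FPKM in E2F1 and 0.497 FPKM in CCNE2, genes of G1 and of entry into S phase, and 10 FPKM in the mitotic gene GTSE1. The mean over the 6 samples was at least 20 FPKM in 4 genes, CCND2, CCND1, CDKN1B and CDK2. It was from 5 to under 20 FPKM in 7 genes and from 2 to under 5 FPKM in 3 genes. In 13 genes it was under 2 FPKM, and in 8 of these under 1 FPKM. By mean level, CCND2 stood at percentile 96.9 of all listed genes and CCNB1 at percentile 1.65. The 3 D cyclins summed to between 145 and 162 FPKM in the sham samples and between 101 and 178 FPKM in the DAC samples. Without GTSE1, the mitotic genes TOP2A, CCNB1, AURKB, PLK1, CDC20, TPX2 and BIRC5 summed to between 5.26 and 6.5 FPKM in the sham samples and between 4.53 and 8.14 FPKM in the DAC samples. GTSE1 alone lay between 3.22 and 15.8 FPKM, and with it AURKB, PLK1, CDC20, TPX2 and BIRC5 summed to between 8.92 and 18.2 FPKM in the sham samples and between 12.2 and 19.8 FPKM in the DAC samples.

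**Figure D1:**
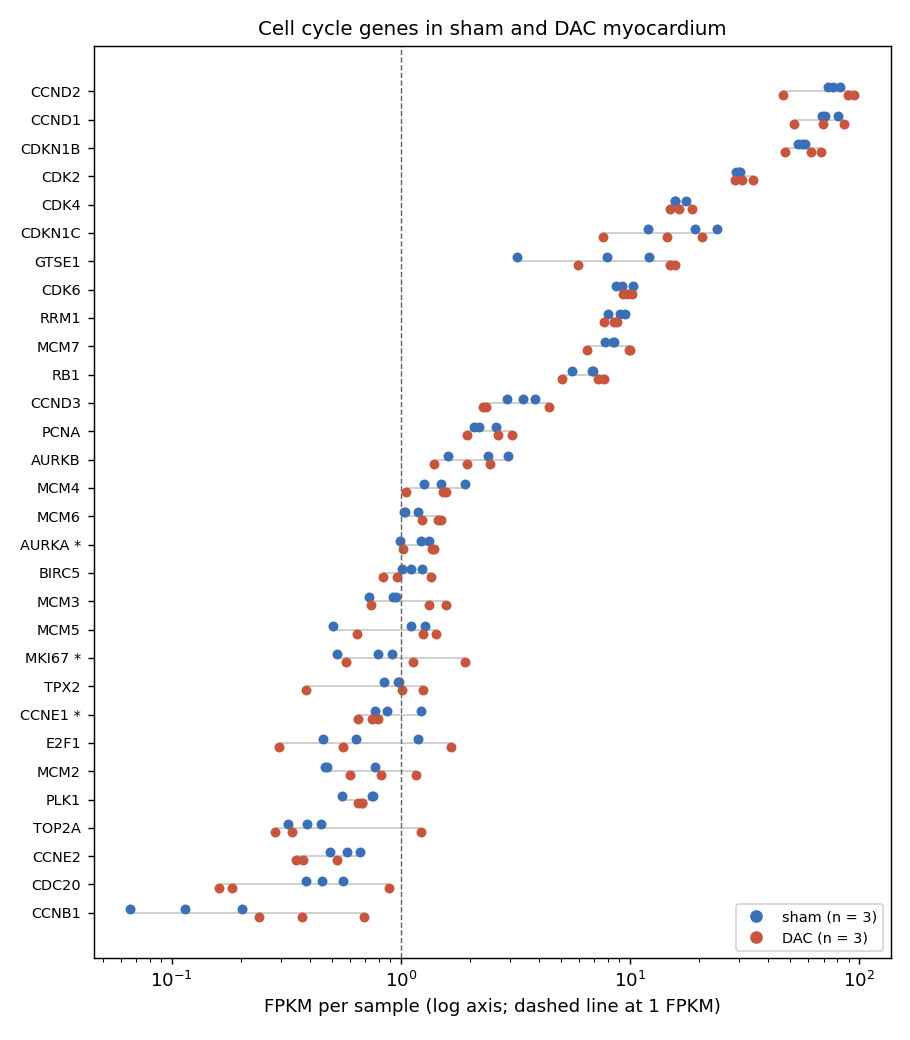
FPKM of each listed cell cycle gene in the 3 sham samples (blue) and the 3 DAC samples (red) on a log axis, with the dashed line at 1 FPKM and the grey line from the lowest to the highest sample. CCND2, CCND1 and CDKN1B lie between 46.4 and 95.3 FPKM and CCNB1 lies under 1 FPKM in all 6 samples, and the colours overlap in all named genes except CCNB1 and MCM6 (genes with a star had no row under their symbol).

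Of the 9 genes without a row under their symbol, 6 were not found at all. These were CDK1, the kinase of mitotic entry, its partners CCNA2 and CCNB2, the spindle checkpoint kinases BUB1 and BUB1B, and RRM2, the inducible subunit of ribonucleotide reductase. They were therefore under 0.5 FPKM in each sample or not listed for another reason. The other 3 were carried by genes that the table leaves without a symbol. CCNE1 was found through its gene identifier and was at 0.773, 0.868 and 1.22 FPKM in the sham samples and at 0.647, 0.750 and 0.797 FPKM in the DAC samples. An unnamed gene covered 97.8% of the RefSeq position of MKI67, the common marker of proliferating cells. Its values were 0.524, 0.796 and 0.915 FPKM in the sham samples and 0.575, 1.13 and 1.91 FPKM in the DAC samples. Another covered 100% of the position of AURKA, the centrosome kinase Aurora A, and ranged from 0.994 to 1.39 FPKM over the 6 samples. In these 3 genes the groups overlapped, and they are not part of the counts below.

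None of the 18 tested genes among those fixed by name passed limma's test between DAC and sham minipigs. Genes that reached 1 FPKM in 3 or more samples were tested on log2(FPKM + 1), a scale that understates the change of low genes, which kept 18 of the 27 genes. A DEG is a gene with an unadjusted P under 0.05, a rule without adjustment. Among all 11029 genes tested, 3.25% were upregulated and 5.27% downregulated DEGs, together 8.51%. These were 358 and 581 genes, and the numbers became 500 and 407 with the mitochondrially encoded genes left out, 429 and 479 with median scaling and 418 and 469 with quantile normalization. Of the 18 cell cycle genes, 0 were upregulated and 0 were downregulated, and the smallest P was 0.115. After Benjamini-Hochberg adjustment of limma's P over all genes tested, 0 of the 11029 genes (0%) and none of the 18 passed 0.05, and the smallest adjusted P among the 18 was 0.645. DAC means exceeded sham means in 10 of the 18 genes and were lower in 8. Their median log2 fold change was 0.028, against -0.016 over all genes tested. The 95% interval of the log2 fold change stayed within 1 of 0 in 16 of the 18 genes, and reached past 1 in GTSE1 and CDKN1C. Without a filter all 27 genes could be tested, and again 0 passed P under 0.05, against 7.95% of the 13288 listed genes.

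**Figure D2:**
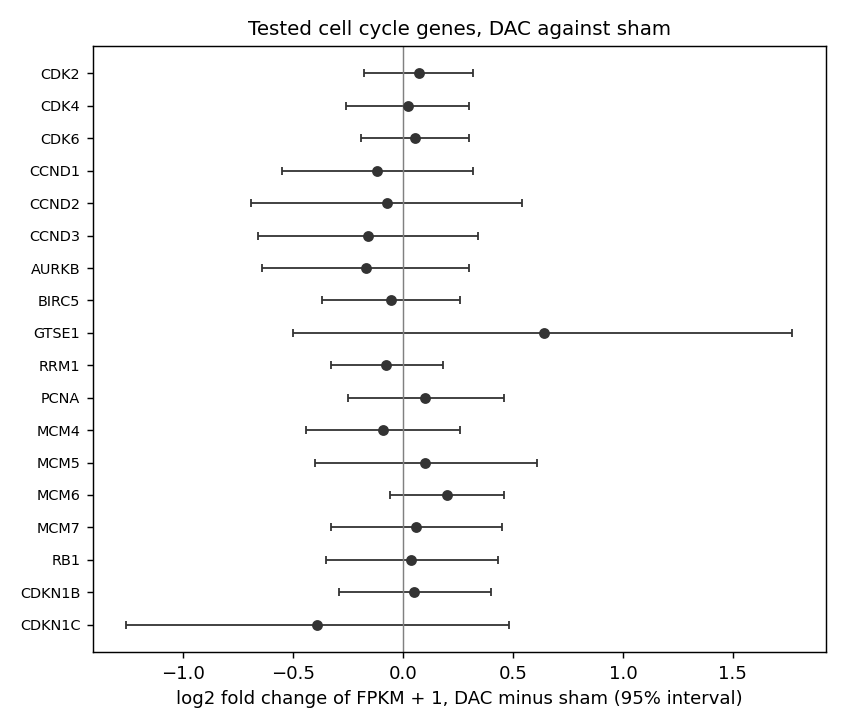
Log2 fold change of FPKM + 1, DAC minus sham, for the 18 tested cell cycle genes, with points for the fitted difference and bars for limma's 95% interval. All 18 intervals cross 0, from CDK6 (-0.19 to 0.30), among the narrowest, to GTSE1 (-0.50 to 1.77).

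D cyclins, the partners of CDK4 and CDK6, held the highest levels, and the levels of the DAC group spread more than those of the sham group. CCND2 (ENSSSCG00000038694, chromosome 5 from 66087379 to 66114571) was at 76.9, 82.3 and 73.1 FPKM in the sham samples and at 89.4, 46.4 and 95.3 FPKM in the DAC samples. DAC 4 and DAC 6 thus lay above each sham sample and DAC 5 below each of them. The log2 fold change of CCND2 was -0.073 (SE 0.26), and it turned to 0.25 without DAC 5. CCND1 (ENSSSCG00000037900, chromosome 2 from 3621246 to 3633296) was at 81.1, 71.1 and 69.0 FPKM in the sham samples and at 85.9, 52.1 and 69.3 FPKM in the DAC samples. Here too DAC 5 was the lowest sample and DAC 4 the highest, and the log2 fold change was -0.12 (SE 0.19), or 0.068 without DAC 5. CCND3 was lower, at 3.84, 3.42 and 2.90 FPKM in the sham samples and at 2.35, 2.28 and 4.44 FPKM in the DAC samples. DAC 6 was the highest of the 6 samples and the other DAC samples were the lowest. Without DAC 6, CCND3 was a downregulated DEG, with a log2 fold change of -0.40, against -0.16 in all samples. It was 1 of 18 cell cycle genes downregulated in that fit, against 674 of all 11029 genes tested. The CCND3 gene overlaps BYSL and TAF8 on the other strand, and the handling of strand is not given in the sources used here.

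The G1 kinases differed little between samples. CDK4 was at 15.8, 15.8 and 17.6 FPKM in the sham samples and at 14.9, 18.7 and 16.4 FPKM in the DAC samples, so the DAC samples lay on both sides of the sham samples. Its log2 fold change was 0.020 with a 95% interval from -0.26 to 0.30. CDK6, the other kinase of D cyclins, ranged from 8.73 to 10.3 FPKM in the sham samples and from 9.37 to 10.2 FPKM in the DAC samples (interval -0.19 to 0.30). CDK2, the kinase of E and A cyclins, was at 30.2, 29.8 and 28.9 FPKM in the sham samples and at 30.9, 28.6 and 34.3 FPKM in the DAC samples. The gene listed as CDK2 spans 26964 bases (ENSSSCG00000037597, chromosome 5 from 21365763 to 21392726), while the RefSeq gene ends at 21372170. The rest covers a second, unnamed gene on the same strand at the position of RAB5B, a small GTPase of endosomes. This second gene was listed at 8.84, 4.18 and 7.11 FPKM in the sham samples, at 7.69 FPKM in DAC 5 and at 0 in DAC 4 and DAC 6. Fragments of RAB5B and of CDK2 cannot be told apart in these values, and the level of CDK2 is uncertain for this reason.

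Among the brakes, CDKN1B, the inhibitor p27, was the most abundant. It was at 54.4, 56.4 and 58.1 FPKM in the sham samples and at 61.6, 68.0 and 47.3 FPKM in the DAC samples, with DAC samples on both sides of the sham samples. The group means were 56.3 ± 1.86 FPKM (SD, n = 3) and 59.0 ± 10.6 FPKM (SD, n = 3), a log2 fold change of 0.051 (SE 0.15). CDKN1C, the inhibitor p57, was at 19.2, 24.0 and 12 FPKM in the sham samples and at 20.7, 7.65 and 14.5 FPKM in the DAC samples. Its lowest value was that of DAC 5, and the spread within each group exceeded the difference of the means (log2 fold change -0.39, SE 0.37). With a sample left out, the log2 fold change of CDKN1C ran from -0.69 without DAC 4 to -0.028 without DAC 5, and it was -0.65 without sham 3 and -0.18 without sham 2. RB1 ranged from 5.56 to 6.90 FPKM in the sham samples and from 5.06 to 7.74 FPKM in the DAC samples. E2F1, its partner at the start of S phase, was at 0.635, 0.457 and 1.19 FPKM in the sham samples and at 0.558, 0.293 and 1.65 FPKM in the DAC samples, so the lowest and the highest samples were both DAC samples. DAC 5, the lowest sample for CCND1, CCND2, CCND3, CDKN1C, RB1, E2F1, CDK2, AURKB and CDC20, was the lowest in 9 of the 27 genes (33.3%), against 22.8% of all listed genes. The share of mitochondrially encoded genes in its summed FPKM was 32.8%, against 24.0% to 27.2% in the other 5 samples. The part of this share in the low values was not tested.

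The genes of DNA synthesis were led by RRM1, the large subunit of ribonucleotide reductase, and MCM7. RRM1 ranged from 7.99 to 9.49 FPKM in the sham samples and from 7.71 to 8.76 FPKM in the DAC samples (log2 fold change -0.076, SE 0.11). PCNA, the sliding clamp of DNA polymerases, was at 2.19, 2.08 and 2.61 FPKM in the sham samples and at 1.94, 2.65 and 3.07 FPKM in the DAC samples, which overlapped. The gene listed as PCNA spans 59463 bases, while the RefSeq gene has 4839. It shares 10574 bases with TMEM230 on the same strand, which was at 2.48 to 3.22 FPKM. It shares 42690 bases with CDS2 on the other strand, which was at 11.9 to 14.1 FPKM. The level of PCNA is uncertain for this reason.

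MCM2 to MCM7 form the hexameric helicase of replication forks, with each subunit present in equal number. Their RNA levels were unequal, since the mean of MCM7 (8.52 FPKM) was 5.80 times that of MCM4 and 11.9 times that of MCM2. MCM7 overlaps COPS6 and AP4M1 at its ends on the other strand. MCM6 (ENSSSCG00000035564, chromosome 15 from 15917042 to 15985405) was at 1.03, 1.19 and 1.04 FPKM in the sham samples and at 1.45, 1.24 and 1.5 FPKM in the DAC samples. All DAC samples lay above all sham samples. The difference did not pass limma's test (log2 fold change 0.20, SE 0.11, adjusted P = 0.645). It passed the unadjusted threshold when the variance of each gene was estimated on its own, as did 8.06% of all genes tested. MCM2 was at 0.474, 0.468 and 0.774 FPKM in the sham samples and at 0.600, 0.821 and 1.16 FPKM in the DAC samples, which overlapped. The MCM2 gene shares 6952 of its 27241 bases with TPRA1 on the other strand, which was at 2.52 to 3.80 FPKM. MCM3 was at 0.952, 0.729 and 0.925 FPKM in the sham samples and at 0.743, 1.33 and 1.58 FPKM in the DAC samples, with DAC 4 next to the lowest sham sample and the other DAC samples above all sham samples. MCM4 and MCM5 lay between 0.505 and 1.90 FPKM, and their groups overlapped.

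The mitotic genes were at low levels in both groups. CCNB1, the cyclin of mitotic entry (ENSSSCG00000029326, chromosome 16 from 47338110 to 47348381), was at 0.114, 0.0656 and 0.203 FPKM in the sham samples and at 0.241, 0.369 and 0.690 FPKM in the DAC samples. All DAC samples lay above all sham samples, and the mean of the DAC group was 3.40 times that of the sham group. Only DAC 6 reached the 0.5 FPKM at which the table lists a gene, so CCNB1 was listed through the group where it is high. CCNB1 stayed under the filter, and in the fit without one its log2 fold change was 0.34 (SE 0.15, adjusted P = 0.62 from limma), also not past the unadjusted threshold. MCM6 and CCNB1 were 2 of 27 genes (7.41%) whose DAC samples all lay above the sham samples, against 6.53% of all listed genes. CCNB1 entered this count only because DAC 6 brought it into the table. All DAC samples lay below the sham samples in 0 of the 27 genes, against 8% of all listed genes. The exact two-sided permutation P of MCM6 and of CCNB1 was 0.10, the smallest that 3 minipigs against 3 allow.

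TOP2A, the topoisomerase that untangles chromosomes before mitosis, was at 0.391, 0.321 and 0.449 FPKM in the sham samples and at 0.282, 0.336 and 1.22 FPKM in the DAC samples. DAC 6 was at 2.72 times the next highest sample, and the other DAC samples lay within or below the sham range. CDC20, an activator of the anaphase-promoting complex, was also highest in DAC 6, with 0.385, 0.560 and 0.453 FPKM in the sham samples and 0.184, 0.160 and 0.887 FPKM in the DAC samples. The other DAC samples were the lowest of the 6. TPX2, a spindle assembly factor, was highest in DAC 6 (1.25 FPKM) and lowest in DAC 4 (0.387 FPKM). PLK1, a kinase of mitotic entry and spindle formation, was the most even of the mitotic genes, from 0.554 to 0.753 FPKM in the sham samples and from 0.650 to 0.680 FPKM in the DAC samples. AURKB, the kinase of the chromosomal passenger complex, ranged from 1.61 to 2.94 FPKM in the sham samples and from 1.39 to 2.46 FPKM in the DAC samples. BIRC5 (survivin), another part of that complex, ranged from 1.01 to 1.24 FPKM in the sham samples and from 0.837 to 1.36 FPKM in the DAC samples, and its gene lies within the listed span of TK1. CCNE2, an E cyclin of the G1 to S step, was at 0.491, 0.581 and 0.666 FPKM in the sham samples and at 0.375, 0.525 and 0.347 FPKM in the DAC samples, where DAC 5 lay within the sham range. The CCNE2 gene shares 690 of its 18095 bases with INTS8 on the other strand, which was at 4.38 to 6.78 FPKM.

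GTSE1, a microtubule-associated protein of G2 and S phase, stood apart from the other mitotic genes. It was at 7.96, 12.1 and 3.22 FPKM in the sham samples and at 15.8, 14.9 and 5.96 FPKM in the DAC samples, while no other named mitotic gene reached 3 FPKM. The highest sample was at 4.92 times the lowest, with sham 3 and DAC 6 the lowest in their groups. The log2 fold change was 0.64 (SE 0.48), and its 95% interval from -0.50 to 1.77 included 0. By size it was the largest among the 18 tested genes in all samples. Without sham 3 it was 0.18, against -0.65 in CDKN1C, and without DAC 4 it was 0.41, against -0.69 in CDKN1C. It was 1 without sham 2 and 1.05 without DAC 6. No other listed gene overlaps GTSE1 (chromosome 5 from 3227816 to 3242789).

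DAC 6 was the highest of the 6 samples in 12 of the 27 genes (44.4%), against 18.3% of all listed genes. Among the 13 genes with a mean under 2 FPKM it was the highest in 8 (61.5%), against 21.2% of the 4005 listed genes in that range. The 8 genes were TOP2A, CCNB1, CDC20, TPX2, MCM2, MCM3, MCM6 and E2F1, and the unnamed genes at MKI67 and AURKA were also highest in DAC 6. The other DAC minipigs did not share this, since DAC 4 was the highest in 0 and DAC 5 in 2 of the 13 genes. DAC 6 was picked out after its values were seen, so these counts describe 1 animal. TOP2A and CCNB1 reached the listing limit of 0.5 FPKM only in DAC 6, so their highest sample was fixed by that limit. The summed macrophage markers were at 163 FPKM in DAC 6, against 99.3 to 137 FPKM in the other samples. Of the 9 macrophage markers, C1QA, C1QB and C1QC were highest in DAC 6, the other 6 were not, and CD163 was lowest there (7.31 FPKM). The summed fibroblast markers were also highest in DAC 6, at 847 FPKM against 532 to 751 FPKM, with 5 of 8 markers highest there (PDGFRA, DCN, COL3A1, TCF21 and DPT). The summed lymphocyte markers were at 10.9 FPKM, against 9.27 to 13.5 FPKM. The part of these cells in the values of DAC 6 was not tested.

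**Figure D3:**
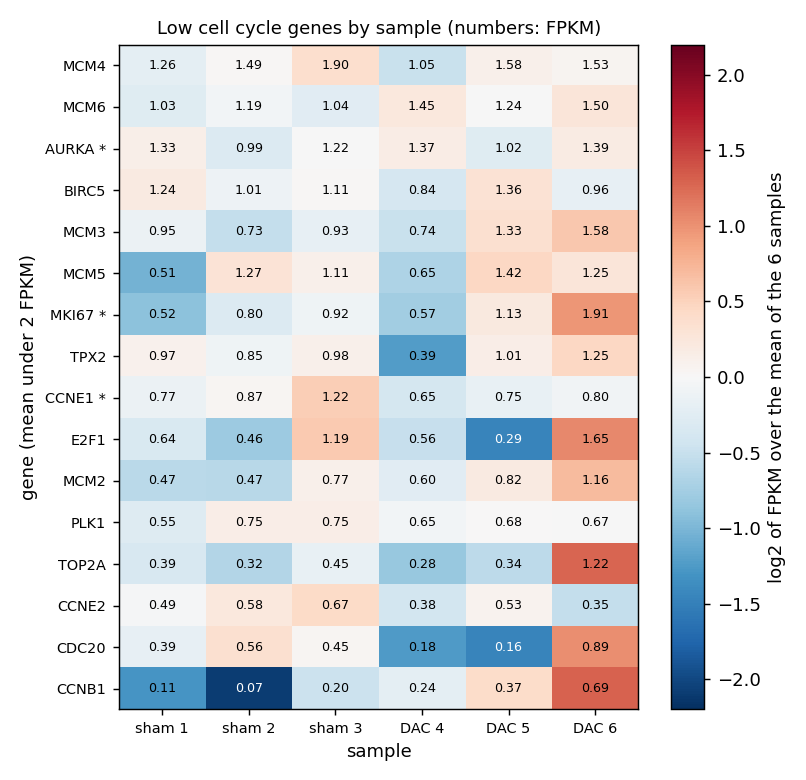
FPKM (numbers) of the listed cell cycle genes with a mean under 2 FPKM in each of the 6 samples, coloured by the log2 of the value over the mean of the 6 samples. The DAC 6 column holds the highest value of TOP2A (1.22 FPKM), CCNB1 (0.69 FPKM), CDC20 (0.89 FPKM) and E2F1 (1.65 FPKM), and DAC 4 and DAC 5 do not share it (genes with a star had no row under their symbol). TOP2A and CCNB1 were listed only through DAC 6.

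Other genes of the cell cycle were examined in 5 lists with 169 genes in all, of which 117 were listed and 83 tested. They held 3 upregulated and 3 downregulated DEGs, which is 7.23% of those tested, against 8.51% of all genes tested. The median log2 fold change was 0.017. None passed the adjusted threshold, and the adjusted P from limma of the 6 DEGs lay between 0.482 and 0.553. Of 57 genes of the kinetochore, spindle and cytokinesis, 33 were not listed and 9 were tested. CENPI, a kinetochore protein, was upregulated, and CDC25B, a phosphatase that activates CDKs before mitosis, was downregulated. Of 27 tested genes of DNA replication, RFC4, a subunit of the clamp loader, was upregulated. Of 22 tested genes of cell cycle control, the inhibitor CDKN1A and the repressor E2F6 were downregulated. Of 13 tested genes of cohesin and condensin, the cohesin subunit STAG2 was upregulated, and of 12 tested genes of the anaphase-promoting complex 0 passed P under 0.05.

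CDKN1A (p21), which blocks CDK2 and responds to p53, was at 21.2, 12.6 and 15.5 FPKM in the sham samples and at 10.9, 6.37 and 7.41 FPKM in the DAC samples. The groups did not overlap, and the log2 fold change was -0.92 (SE 0.24, adjusted P = 0.482 from limma). CDC25B was at 17.4, 15.5 and 14.4 FPKM in the sham samples and at 12.4, 9.78 and 8.61 FPKM in the DAC samples, again without overlap (log2 fold change -0.58, SE 0.15). E2F6 was at 10.5, 9.74 and 9.80 FPKM in the sham samples and at 8.17, 8.22 and 7.92 FPKM in the DAC samples. RFC4 was at 1.62, 2.17 and 1.97 FPKM in the sham samples and at 2.66, 4.09 and 2.88 FPKM in the DAC samples. Each of these stood without overlap between the groups. CENPI was at 1.13, 0.722 and 0.712 FPKM in the sham samples and at 1.56, 1.52 and 1.35 FPKM in the DAC samples. STAG2 was at 7.75, 8.14 and 6.78 FPKM in the sham samples and at 10.6, 9.80 and 8.74 FPKM in the DAC samples. CDKN1A, CDC25B and RFC4 stayed past P under 0.05 with each sample left out in turn. STAG2 did not without sham 1, sham 3, DAC 4 or DAC 5, E2F6 did not without sham 1 or DAC 6, and CENPI did not without sham 3.

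**Figure D4:**
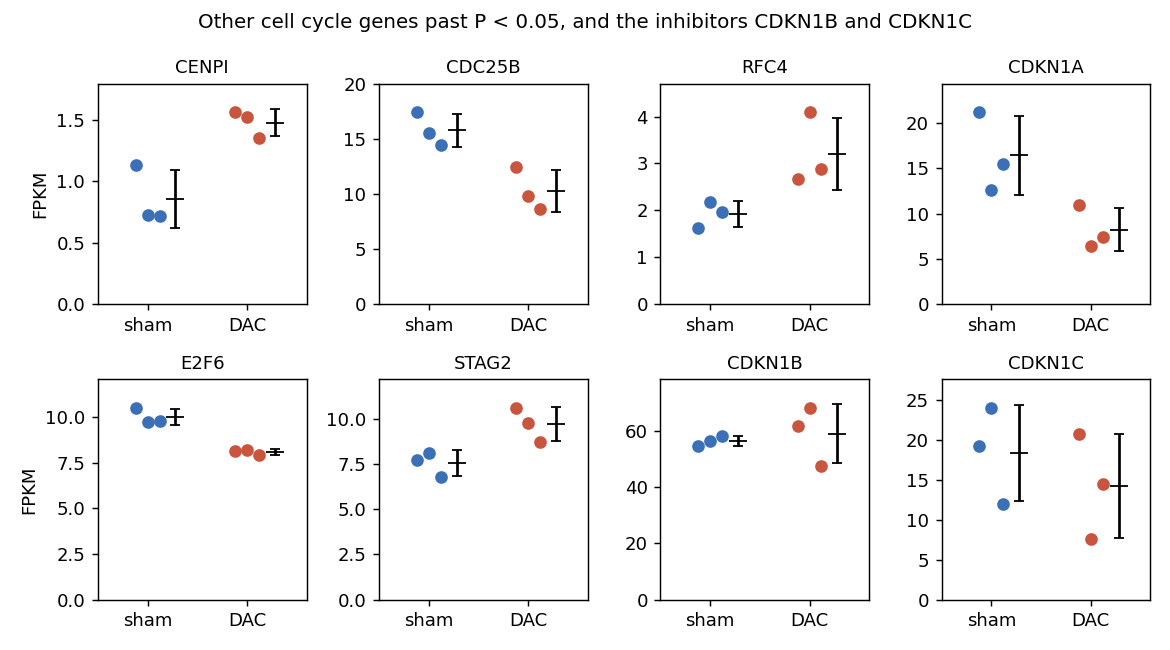
FPKM per sample of the 6 further cell cycle genes past P under 0.05 and of CDKN1B and CDKN1C, with points for samples and the bar for mean and SD (n = 3 a group). The DAC points of CDKN1A, CDC25B and E2F6 lie below all sham points and those of CENPI, RFC4 and STAG2 above, while the groups of CDKN1B and CDKN1C overlap.

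Over the series, the summed FPKM of a sample was between 281377 and 308771. Markers of cardiomyocytes were high in all samples, with 6 of 10 listed and TNNT2 between 3590 and 5920 FPKM, and RYR2 was a downregulated DEG among them. Of 8 fibroblast markers, 4 were upregulated DEGs, COL1A1, COL1A2, COL3A1 and LUM, and the 8 summed to between 532 and 617 FPKM in the sham samples and between 743 and 847 FPKM in the DAC samples. The 8 endothelial markers held 1 upregulated (KDR) and 2 downregulated DEGs (VWF and CLDN5), and the 9 macrophage markers 0 and 1 (CD163). Of 7 markers of smooth muscle cells and pericytes, CNN1 was an upregulated DEG, and the sum was between 137 and 166 FPKM in the sham samples and between 163 and 185 FPKM in the DAC samples. Over all genes tested, 3.25% were upregulated and 5.27% downregulated DEGs. None of the markers passed the adjusted threshold. Of 4 red blood cell markers 3 were listed and 1 tested, with HBB between 5.86 and 38.0 FPKM and ALAS2 listed at 0 in DAC 5. Of 4 adipocyte markers 2 were listed, and their sum did not exceed 1.34 FPKM. Only 4 of 11 lymphocyte markers were listed (CD3E, CD4, CD79A and NKG7), and their sum was between 9.27 and 13.5 FPKM. The part of these cell types in the cell cycle values was not tested.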

How the data were processed

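RNA from ventricular myocardium of 6 minipigs was sequenced as paired ends. The deposited values are FPKM per gene, which the authors made from alignments to the susScr11 build, with HISAT2 named in the submitters' processing notes. The quantification program and the handling of strand are not given in the sources used here. Read counts were not used here, so depth is unknown. Gene symbols were taken from the table, and 2440 of its 13288 genes have none. Unnamed genes were assigned by gene identifier (520 genes) or, in 2 cases, by at least 90% cover of a RefSeq gene (Sscrofa11.1). Among the cell cycle genes fixed by name, CCNE1 was found by identifier and was left out of the main counts. In the further lists NUSAP1, POLA2, PRIM1 and ANAPC10 were also named by identifier, but they were counted. The 2 sets of lists were thus not handled alike.

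Values were tested as log2(FPKM + 1) with limma 3.58.1 (R 4.3.3), using a variance trend and no covariates, for genes that reached 1 FPKM in 3 or more samples. The threshold of unadjusted P under 0.05 was taken over from the study's methods. P values are two-sided, with Benjamini-Hochberg adjustment over all genes tested, and intervals are 95%. Each sample is 1 labelled animal, and P values measure the spread between these samples. Single levels were also compared by exact permutation. The fit was tested on simulated data. Genes in the text are all 36 cell cycle genes, up to 3 genes past P under 0.05 in each direction from each further list, and markers of other cell types. The genes and lists were chosen with earlier results of these data known. Alternatives were no filter, a filter at 5 FPKM, a pseudocount of 0.1, 3 other scalings, unmoderated variances, sample weights and leaving out each sample. Tables and plots were made with pandas 2.3.3 and matplotlib 3.10.9.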

Additional observations from a re-analysis of the deposited data

How the results depend on the processing

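No paired analysis was possible because the sham samples are numbered 1 to 3 and the DAC samples 4 to 6, so the groups share no replicate number. Upregulated cell cycle genes numbered 0 of 18, and 1 of 18 (MCM6) with each gene's own variance. In that setting 358 of all 11029 genes tested were upregulated. With each sample left out in turn, upregulated genes numbered 0 to 0 and downregulated genes 0 to 1, the 1 being CCND3 without DAC 6. Without DAC 6, 674 of all 11029 genes tested were downregulated. The median log2 fold change of 0.028 became 0.063 with quantile normalization and 0.069 with the mitochondrially encoded genes left out, and ran from -0.017 to 0.03 with each sample left out. Of the 27 listed genes, the number whose groups do not overlap (2) was 3 with median scaling, where 14.2% of all 11029 genes tested did not overlap. It ran from 3 to 7 with each sample left out, where 21.9% to 28.8% of all genes tested did not overlap, against 14.9% in all samples. The sets are unlike, since the 27 include 9 genes under the filter. Without a filter the share in all samples was 14.5% of 13288 genes. Of 83 tested further cell cycle genes, 3 were upregulated DEGs. This became 5 of 117 without a filter and 1 of 32 with a minimum of 5 FPKM. Of 83 genes again, it became 5 with median scaling, 6 with the mitochondrially encoded genes left out and 8 with own variances. Over all genes tested, 358 of 11029 became 435 of 13288 without a filter and 165 of 6271 with the minimum of 5 FPKM. It became 429 of 11029 with median scaling, 500 of 11016 with mitochondrially encoded genes left out and 358 of 11029 with own variances. The 3 downregulated DEGs became 5 with own variances, where the 581 over all genes tested became 531. With each sample left out, the upregulated and downregulated further genes numbered from 1 to 4 and from 2 to 4. Over all genes tested these numbers ran from 241 to 470 and from 359 to 674. With the minimum of 5 FPKM, RFC4 and CENPI were no longer tested. The DEGs added without a filter, KIF20B and CHAF1B, were not tested with it. The cause of the other changes was not tested.

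With a sample left out, the log2 fold change changed sign in 10 genes that were not DEGs in all samples. It ran from -0.17 to 0.014 in MCM4, from -0.066 to 0.20 in RB1, from -0.078 to 0.27 in MCM5, from -0.061 to 0.094 in CDK4 and from -0.0028 to 0.23 in PCNA. It ran from -0.036 to 0.24 in MCM7, from -0.059 to 0.20 in CDKN1B, from -0.29 to 0.068 in CCND1, from -0.26 to 0.25 in CCND2 and from -0.16 to 0.022 in BIRC5. An alternative chosen after seeing the data added CCNE1 and the unnamed genes at MKI67 and AURKA. Of these only the gene at AURKA passed the filter, so 19 genes were tested, 0 were DEGs and the median was 0.036. The gene at MKI67 and CCNE1 could be tested only without a filter. Their log2 fold changes there were 0.30 (SE 0.23) and -0.17 (SE 0.13), both not past the unadjusted threshold. With 3 minipigs a group and unknown depth, differences within these intervals were not detectable, which does not show that levels were alike.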

Other observations

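Among the 37 listed genes of DNA replication, the DAC samples all lay above the sham samples in 10 (27.0%), against 6.53% of all listed genes. They all lay below in 1 (CDC45, 2.7%), against 8% of all listed genes. The 10 were the origin recognition subunits ORC3 and ORC6, POLA1, PRIM1 and PRIM2 of the primase complex, the clamp loader subunits RFC3 and RFC4, the chromatin assembly factor subunit CHAF1B, TIPIN of the fork protection complex and TYMS, which makes thymidylate. Of these, PRIM1 was named by its gene identifier. RFC4 alone was a DEG with the filter, and CHAF1B also was without it. CHAF1B and TYMS reached the listing limit of 0.5 FPKM only in DAC samples, so they were listed through the group where they are high. In cohesin and condensin the DAC samples all lay above in 4 of 16 genes (25%), SMC3, SMC4, STAG1 and STAG2, and all below in 0. In other cell cycle control they lay above in 4 and below in 4 of 26 genes. The numbers were 3 and 2 of 24 for the kinetochore, spindle and cytokinesis, and 0 and 1 of 14 for the anaphase-promoting complex. Over all 117 listed genes of these lists they were 21 (17.9%) and 8 (6.84%). The counts of DNA replication and of cohesin and condensin were singled out after the values were seen. No list was tested as a set.

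DAC 6 was also the highest sample in 12 of 24 listed genes of the kinetochore, spindle and cytokinesis (50.0%), against 18.3% of all listed genes. It was the highest in 6 of 37 genes of DNA replication (16.2%) and in 5 of 26 of other cell cycle control (19.2%). The numbers were 4 of 14 for the anaphase-promoting complex (28.6%) and 1 of 16 for cohesin and condensin (6.25%). UBE2C, the ubiquitin-conjugating enzyme of the anaphase-promoting complex, was at 4.10 FPKM in DAC 6, against 0.660 to 1.80 FPKM in the other samples. KIF11, the spindle motor Eg5, was at 0.631 FPKM in DAC 6, against 0.131 to 0.234 FPKM in the other samples. KIF11, KIF20A, KIFC1, CENPF, CKAP2 and FOXM1 reached the listing limit of 0.5 FPKM only in DAC 6, so their highest sample was fixed by that limit. The same holds for TK1, UHRF1 and TYMS of DNA replication and for E2F8 of other cell cycle control.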
